A study of Rattus norvegicus with 18 samples.

Results

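The transcripts of peripheral blood mononuclear cells (PBMC, the lymphocytes and monocytes that a Ficoll density gradient recovers from blood) were described in rats on the control low-fat diet (LFD). The 6 LFD replicates were taken from the 18 arrays of the series, with no comparison between diets, and each is 1 rat on 1 array. The rats were male Wistar animals, 2 months old at the start, given LFD for 4 months with free access and fasted for 14 h before saphenous vein blood was drawn. LFD gave 70% of its energy as carbohydrate, 10% as fat and 20% as protein. The other 12 arrays, used here only to ask whether a gene dark in LFD rats was seen elsewhere, came from rats on a high-fat diet (20% carbohydrate, 60% fat, 20% protein) or a high-protein diet (45%, 10%, 45%, with casein), both matched in energy to LFD. One of those 12 arrays carries conflicting diet labels and was counted as high-protein. On each array 200 ng of RNA entered labelling, with the rat labelled in Cy5 and a pool made of equal amounts of the samples in Cy3.

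PBMC carry the RNA of T cells, B cells, natural killer (NK) cells and monocytes. Neutrophils and mature red cells are denser than the gradient and are meant to sediment out of the fraction, while platelets and young red cells can stay in it. T cells recognise peptides through the T cell receptor and its CD3 chains, B cells through the surface antibody and its CD79 chains, NK cells kill by perforin and granzymes, and monocytes carry receptors for microbial products. In this bulk RNA, fewer cells of a type and less RNA per cell cannot be told apart.

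Abundance was read as log2 of the Cy5 processed signal, a spot's brightness after background subtraction and dye normalization, so that 1 unit is a doubling of signal. For a gene name with several probes the brightest was used. Brightness also depends on how well a probe binds: in 2385 gene names with 2 or more probes well above background in every rat, the brightest and the dimmest probe lay a median of 2.22 log2 units apart, with a 90th percentile of 5.20. The order of genes is therefore an order of probe signals, not of molecules. A gene was called detected on an array where the scanner software marked it as well above background (a fixed multiple of the background's own spread), and dark where it was marked on none of the 6.

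Signal was strong and unsaturated on all 6 arrays. The 75th percentile of the Cy5 signal was 310 to 592 units, lowest in rat 5 and highest in rat 2, and 53.3 to 63.5% of the 43379 non-control spots were well above background. No LFD spot was saturated. The negative control spots had medians of 3.53 to 5.27 units, and the dimmest spots called well above background 13.1 to 20.3 units. The arrays lay on 4 slides, with rats 1 and 2 together, rats 4 and 5 together and rats 3 and 6 on slides of their own.

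Of 35672 gene names, 17198 (48.2%) were detected in all 6 rats, 7204 in 1 to 5 and 11270 (31.6%) in none. The array is old and carries many expressed sequence tags, so the account below rests on the 16182 gene names that match a current RefSeq gene. For 115 of 15790 symbols (0.728%) the array design places the probe on another chromosome than RefSeq places the gene, and such genes are not singled out below unless this is said. Of the matched names, 9299 (57.5%) were detected in every rat, 2768 in some and 4115 (25.4%) in none. The median signal was 9.40 among matched names detected in all rats and 2.39 among the dark ones. Rat 2, with the brightest array, had 22288 gene names detected and 985 that no other LFD rat showed, while rat 5, with the dimmest, had 18656 and 165. The part of array brightness in these single-rat calls was not tested.

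**Figure D1:**
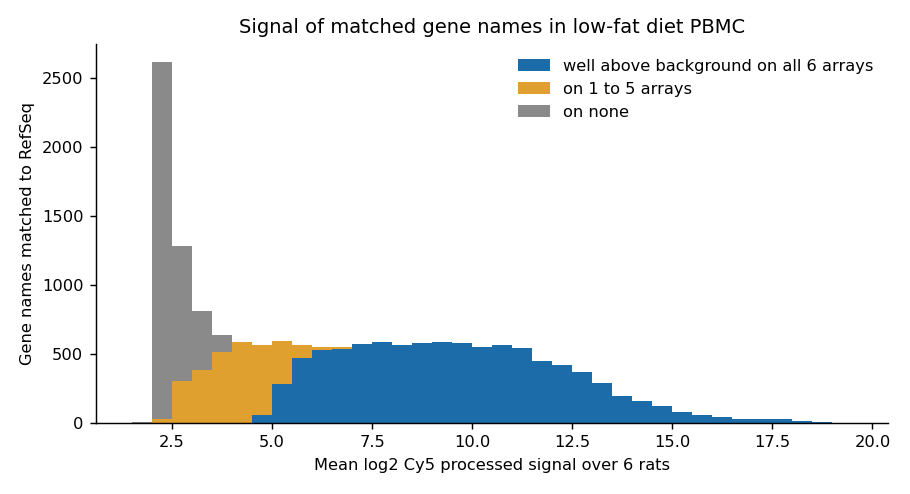
Number of matched gene names (vertical axis) by mean log2 Cy5 processed signal over 6 LFD rats (horizontal axis, bins of 0.5), stacked by detection class. The 4115 dark names reach up to 4.13, the 9299 names detected in every rat spread from 4.45 to 18.83, and the 2768 seen in some rats lie between and overlap both.

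The brightest matched transcripts were those of the protein-making machinery, the actin cytoskeleton and antigen presentation, with the neuropeptide Npy at their head. Among the 100 brightest gene names, 65 matched RefSeq, and 42 of these were ribosomal proteins from a list of 79. The other 23 included Npy, Tpt1 (a growth-linked tubulin-binding protein), Tmsb4x (thymosin, which holds actin monomers), B2m (the light chain of MHC class I), Hba-a3 (alpha-globin), Ubb (ubiquitin), Myl6 and Myl9 (myosin light chains), Actb (beta-actin), Laptm5 (a lysosomal protein of blood cells), Btg1 (an inhibitor of proliferation), Plac8, Pf4 (the platelet chemokine), Coro1a and Cotl1 (actin-binding proteins) and Hbb-b1 (beta-globin). The remaining 35 had no current match, and 2 of the 100 map to the mitochondrial genome. The brightest name of all, LOC257642 at 18.96 ± 0.30 (SD, n = 6), is 1 of the unmatched. These 100 names held 27.4 to 30.3% of the summed signal of an array. The same list was largely shared outside the group: 93 of the 100 were among the 100 brightest of the high-fat arrays, 92 of the high-protein arrays and 95 of the Cy3 pool on the LFD arrays, which contains LFD RNA. In every single LFD rat, 74 of them were among that rat's own 100 brightest.

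Npy encodes neuropeptide Y, a transmitter of sympathetic and hypothalamic neurons that rodent megakaryocytes also make. Its signal was 18.50 in the lowest rat, 18.69 at the median and 19.60 in the highest, rat 2, for a mean of 18.83 ± 0.40 (SD, n = 6), the second brightest gene name on the array. The other 5 rats lay between 18.50 and 18.85. After scaling every array to its 75th percentile the SD was 0.21, but as a log2 ratio to the pool it was 0.81, and the Cy3 pool read 18.10 ± 0.43 on the same arrays. The probe lies on chromosome 4 at 78045125 to 78045184 of rn4, the rat build the array design is annotated on, and where in the gene it falls was not analysed here.

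Ribosomal proteins were bright. All 74 measured members of the list were detected in all rats, with a median signal of 17.31 against 6.40 over all 16128 symbols, and their median SD over rats was 0.24 against 0.45 over all symbols detected in every rat. After scaling the SDs were 0.28 and 0.36, and 0.27 over all matched names of signal 15 to 20, which include members of the list. As measured those names had a median SD of 0.34 against 0.24 for the list, and as ratios to the pool 0.20 against 0.18. Whether the list was more even than names as bright thus depended on the scale. Rps23 read 18.60, 18.77 and 19.03 in the lowest, median and highest rat, and Rps16 had a mean of 18.80 ± 0.11 (n = 6). No rat stood apart in either. The current symbols Rpl37 (7.30 ± 0.18, n = 6) and Rpl37a (7.15 ± 0.12, n = 6) were the dimmest of the list. The gene name Rpl37 of the array itself was matched to Rpl37l1, which is outside the list, and read 17.96 ± 0.17 (n = 6). Ribosomal protein genes have many near-identical copies, and which of them each probe reads was not tested. The 24 measured translation factors and the 28 actin and cytoskeleton genes were likewise all detected in every rat, with medians of 13.93 and 14.40. Tmsb4x read 18.30, 18.47 and 19.38 in the lowest, median and highest rat and Actb 17.46, 17.82 and 18.57, with rat 2 highest in both.

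**Figure D2:**
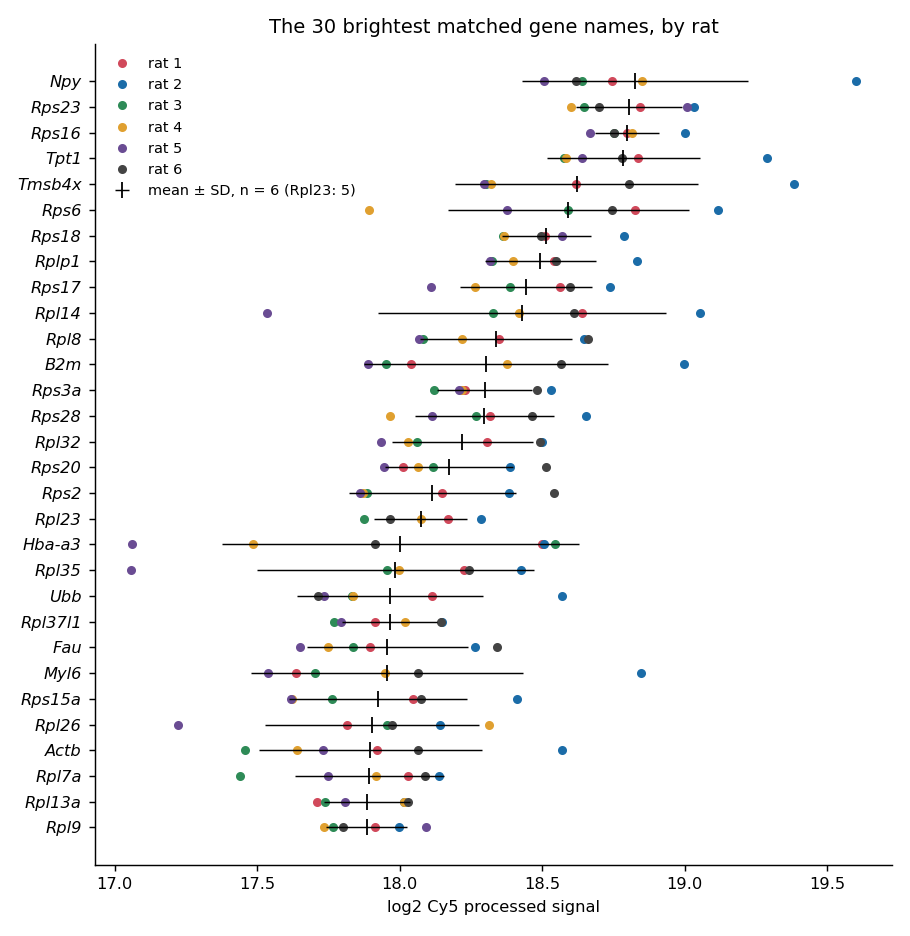
The 30 matched gene names with the highest mean log2 Cy5 processed signal (horizontal axis), 1 row per gene, with a coloured point per rat and a black line for mean ± SD. Rat 2 sits rightmost for Npy (19.60), Tpt1 (19.29) and Tmsb4x (19.38), and the ribosomal protein genes fill most rows.

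Antigen presentation was bright in both classes. All 16 measured genes of MHC class I and its peptide loading were detected in every rat, with a median of 13.62. B2m ranked first among them at 18.30 ± 0.43 (n = 6), then the heavy-chain gene RT1-A2 at 16.40 ± 0.39. Of 9 MHC class II genes 8 were detected in every rat, led by the invariant chain Cd74 at 16.45 ± 0.41 and by RT1-Da at 15.39 ± 0.42. The ninth, RT1-Ba, the alpha chain that pairs with RT1-Bb, was marked on 4 of 6 arrays. RT1-Ba read 9.84 in rat 2 and 3.56 to 5.24 in the other 5, whereas RT1-Bb read 13.56 to 14.65 with no rat apart.

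The markers of blood cells divided as the label of the samples implies for lymphocytes and monocytes, and 3 further sets were bright or partly so. Lists of 20 cell types and 17 functions, 885 different genes of which 798 were measured here, were read by the share of members detected in all rats, which over all symbols was 57.6%, and by the share dark in all, which was 25.4%. More than 50% of the members were detected in every rat in 11 of the 20 cell type lists, 1 of which, that of sex-linked genes, rests on a single probe. The lists are short and the genes differ in probe quality, so a share is a description.

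T cell genes were detected throughout. Of 20 listed, the 18 measured were all marked in every rat, with a median of 11.60. The CD3 chains Cd3d and Cd3g read 16.56, 16.67 and 17.03 and 16.08, 16.38 and 16.75 in the lowest, median and highest rat, and Cd6, a T cell adhesion receptor, had a mean of 16.06 ± 0.31 (n = 6). As measured, Cd3d was also among the evenest of marker genes, with an SD of 0.17 over rats. The same pool RNA had 0.22 on the same arrays. Neither SD is scaled for array brightness. The third chain, Cd3e, had a mean of 11.68 ± 0.63 through its own probe. Among CD8 T cell genes, Cd8a read 12.60 in rat 6, 13.27 at the median and 13.90 in rat 1, Cd8b had a mean of 12.76 ± 0.40 and the granzyme Gzmk 14.88 ± 0.62, while Crtam was marked on 3 arrays. In the CD4 list 9 of 10 genes were detected in every rat, all at modest signal: Tbx21, the T helper 1 regulator, had a mean of 9.33 ± 1.13, Tnfrsf4 8.73 ± 0.33 and Gata3, the T helper 2 regulator, 8.68 ± 0.44. Cd4 itself read 7.08, 7.75 and 8.20 in the lowest, median and highest rat.

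Of 20 listed B cell genes 12 were measured, and all 12 were detected in every rat and a median of 9.54. Cd79b, the signalling chain of the B cell receptor, read 12.92, 13.30 and 13.67 across the rats, and the IgE receptor Fcer2 read 12.02, 12.50 and 12.98. The early B cell factor Ebf1 had a mean of 10.92 ± 0.71 (n = 6) and Ms4a1, which encodes CD20, 9.14 ± 0.63. Plasma cell genes were dimmer, 5 of 6 being detected in every rat with a median of 7.85, among them Sdc1 at 9.24 ± 0.66 and Tnfrsf17 at 8.28 ± 0.90.

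Genes of NK and cytotoxic cells had some of the highest marker signals. Of 22 measured, 19 were detected in every rat and 2, Ncr3 and Gzmf, in none. The chemokine Ccl5 read 15.81 in rat 5, 17.41 at the median and 17.65 in rat 2, granzyme Gzmm read 15.45, 16.24 and 16.87, and Gzma had a mean of 15.36 ± 0.79. Perforin (Prf1) read 14.19, 15.16 and 16.11 and the granule protein Nkg7 13.87, 15.02 and 15.51. As measured, rat 5, the dimmest array, was lowest for Ccl5, Gzmm, Prf1 and Nkg7, and over the list rat 5 was lowest for 14 of 19 genes as measured and for 8 of 19 after scaling.

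Monocyte genes were largely detected. Of 26 measured, 22 were detected in every rat, with a list median of 10.17. Tyrobp, the adaptor DAP12, read 14.95, 15.47 and 16.14, the lysozyme Lyz2 14.64, 14.95 and 16.05, and Nr4a1, an early response gene of the list, had a mean of 14.26 ± 0.35 (n = 6). Cd14, the lipopolysaccharide co-receptor, was more uneven, at 6.99 in rat 4, 8.87 at the median and 9.88 in rat 6. The scavenger receptors Cd163 (2.33 ± 0.35) and Msr1 (2.20 ± 0.23) were dark in all 6 rats and on all 12 other arrays. In the dendritic cell list 8 of 12 were detected in every rat (66.7%, against 57.6% of all symbols). They were led by the activation marker Cd83 at 12.61 ± 0.71, Cd1d1 at 12.25 ± 0.75 and Itgae at 11.18 ± 0.49, genes that other leukocytes also carry. Xcr1, Zbtb46 and Fscn1 were dark, 25% of the list, about the share of all symbols (25.4%).

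Neutrophil genes were dark about as often as all symbols. Of 27 measured, 12 were detected in every rat (44.4%), 8 in some and 7 in none (25.9%), with a list median of 5.44. Dark in all 6 rats were Lcn2 and Mpo, granule proteins, the chemokine receptors Cxcr1 and Cxcr2, and the protease Ctsg, with means of 2.35 to 3.33, besides Olfm4 and Ngp. The calgranulins were detected but modest: S100a8 read 7.16 in rat 4, 8.23 at the median and 9.79 in rat 6, and S100a9 read 7.84, 8.71 and 9.97 with the same rats at the ends. The brightest members were the ficolin Fcnb (11.54 ± 0.81), Alox5ap (10.51 ± 0.61), which monocytes also express, and the defensin Np4 (8.95 ± 0.34). Of 20 genes of basophils, mast cells and eosinophils, 8 were detected in every rat (40%, against 57.6% of all symbols). They were led by the mast cell proteases Cma1 (10.34 ± 0.65), Tpsab1 (9.98 ± 0.31) and Mcpt1 (8.83 ± 0.79). Another 6 were dark (30%, against 25.4%), among them the IgE receptor chain Fcer1a and the eosinophil peroxidase Epx.

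Platelet genes and the globins among red cell genes were bright. Of 32 erythroid genes 27 (84.4%) were detected in every rat, with a list median of 8.26. Hba-a3, through a probe whose accessions cover 3 alpha-globin genes, read 17.06 in rat 5, 18.21 at the median and 18.55 in rat 3, and Hbb-b1 read 15.70, 17.48 and 17.92. Alas2, which starts heme synthesis in young red cells, read 11.64, 12.78 and 13.90. Bnip3l, a mitophagy receptor of maturing red cells that other cells also express, was the third brightest of the list at 15.69 ± 0.30 (n = 6). Only Ank1 of the list was dark. Of 24 platelet genes 19 were detected in every rat, with a list median of 11.70. Pf4 read 16.26 in rat 5, 17.22 at the median and 18.85 in rat 2, the TREM-like receptor Treml1 read 15.24, 16.04 and 17.61, and Gp1bb, a subunit of the receptor for von Willebrand factor, read 15.24, 16.13 and 17.64. The adhesion molecule Selp (2.46 ± 0.98) was dark.

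Of the lists for tissues outside the blood, that of neurons was mostly dark, and the others had 25% to 40% of their genes dark, against 25.4% of all symbols. Of 12 genes in the neuron list 9 were dark in all rats, among them the neuronal genes Nefm, Slc17a7, Snap25 and Stmn2 and the astrocyte gene Gfap, and of 10 progenitor genes 4 were dark, Hoxa9, Rag1, Dntt and Mecom. In the hepatocyte list Fga, Fgg, Tat, Ahsg and Apoc3 were dark, but Tf (transferrin) read 11.60, 12.57 and 13.17 and Hp (haptoglobin) 10.18, 10.54 and 10.75. The highest signal of that list, 16.08 ± 0.56 (n = 6) for Ttr (transthyretin), came from a probe that the array design places on the mitochondrial genome, so it is not read as a level of transthyretin. In the adipocyte list Lep, Lpl, Plin1 and Ucp1 were dark, and Slc2a4, the insulin-regulated glucose transporter GLUT4, read 10.53, 11.29 and 12.04. Adipoq was marked on 1 array and read 5.81 in rat 2 against 2.31 to 3.53 in the others. Of 12 endothelial genes 5 were detected in every rat, led by Vwf at 12.83 ± 0.91, which platelets carry too, and by Kdr at 10.51 ± 0.92 and Egfl7 at 7.59 ± 0.56, while Tek, Emcn and Nos3 were dark. Of 15 fibroblast and muscle genes 5 were detected in every rat, the highest being Tnnt3 (9.61 ± 0.34), Col1a1 (9.15 ± 0.26) and Col1a2 (8.32 ± 0.60), and 5 were dark, Dcn, Lum, Pdgfra, Myh6 and Myh7. Of 10 epithelial genes 4 were dark, Epcam, Krt8, Krt19 and Vil1. No Y-linked gene was read here: the only listed one with a match, Uty, rests on a probe that the array design names Utx_predicted and places on chromosome X.

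The hepatocyte gene Alb (albumin) stood out by its 2 dyes. Its Cy5 signal was 5.63, 6.05 and 6.50 in the lowest, median and highest rat and was marked in all 6, while the Cy3 pool, which holds RNA of the same rats, read 3.42 ± 0.65 through the same spots. Among 9289 symbols detected in every rat the difference of Cy5 and Cy3 had a median of -0.01, with a 1st percentile of -0.38 and a 99th of 0.43. It exceeded 2 log2 units in 9 symbols and fell below -2 in 1. The 9 were Alb, Ranbp17, Igf2bp3, Prr16, Ka11, Lyc2, Lao1 and the olfactory receptors Or6c203b and Or51a10, at Cy5 means of 4.91 to 6.26 and Cy3 means of 2.77 to 3.42, and they were singled out after their values were seen. The rats are always in Cy5 on these arrays, and Alb was marked in Cy5 on all 12 other arrays too. What makes the gap was not tested, so the Cy5 signals of the 9 are not read as levels of their RNA. The detected calls of the 9 rest on Cy5 alone.

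**Figure D3:**
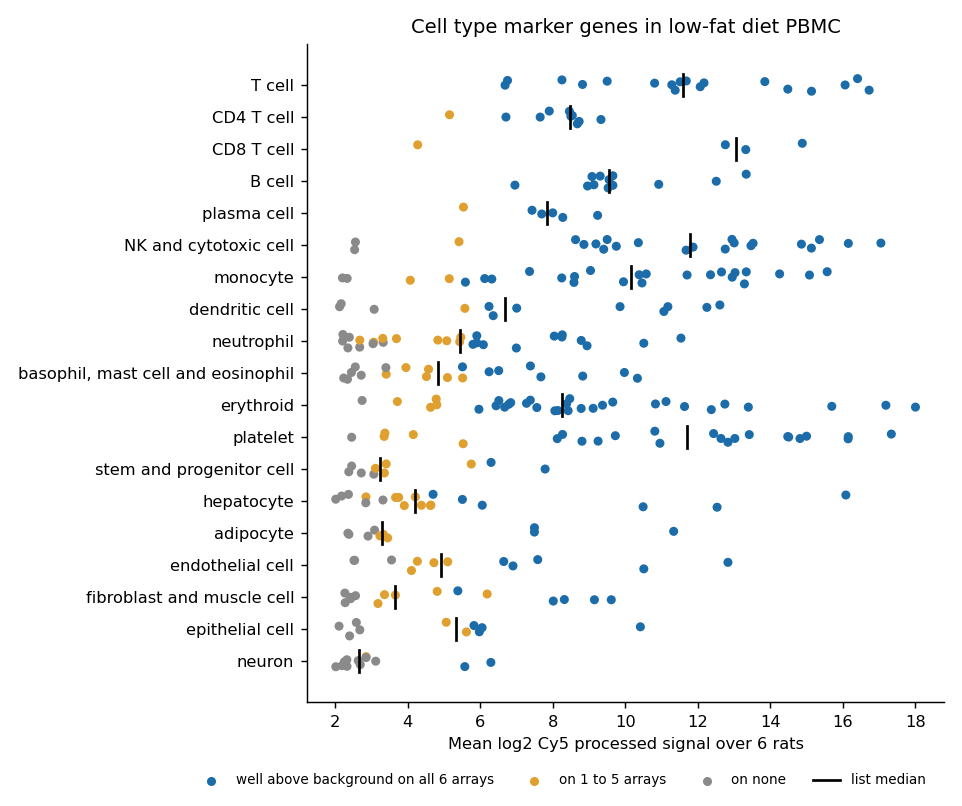
Mean log2 Cy5 processed signal over 6 rats (horizontal axis) of every measured marker gene of 19 cell type lists (rows), coloured by detection class, with a black bar at the list median. T cell, B cell, NK, monocyte, erythroid and platelet rows are mainly blue, with medians of 8.26 to 11.77, while the neuron row is mainly grey, with a median of 2.67.

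Cytokines were dark about as often as all symbols, while the receptor, sensing, interferon and early response lists were largely detected. Of 56 cytokines and chemokines 27 (48.2%) were detected in every rat and 16 were dark (28.6%). Besides Pf4 and Ccl5, Ltb (lymphotoxin beta) was bright at 16.30 ± 0.25 (n = 6), and Il1b read 11.76, 12.52 and 13.67. The dark ones included Tnfsf10, Il23a, Il3, Il1a and Il5. Ifng and Il10 were detected in every rat at 8.81 ± 0.72 and 6.14 ± 0.68. Of 27 chemokine receptors and homing molecules 20 were detected in every rat, led by Cxcr4 (14.85 ± 0.36) and the integrin chains Itgb2 (14.80 ± 0.47) and Itgb7 (14.14 ± 0.29), and 6 were dark, among them Ccr8, Ccr3 and S1pr1. Of 19 genes of Toll-like receptors and sensing 15 were detected in every rat, with Tlr2 (11.86 ± 0.61), Tlr6 (10.97 ± 0.60) and Sting1 (10.61 ± 0.79) highest, and Tlr5, Tlr10 and Nod2 were dark. Interferon-response genes were detected in every rat in 25 of 29 cases, with Ifitm1 (14.47 ± 0.47) and Ifi27 (13.89 ± 0.24) among the highest, and Ifitm3 was dark. Of 28 immediate early genes 26 were detected in every rat and none was dark, with Btg1 (17.74 ± 0.39), Zfp36l2 (16.23 ± 0.66) and Klf6 (16.18 ± 0.36) highest.

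Metabolic genes of the fasted cells were largely detected, with a smaller share of each list dark than of all symbols. Of 23 glycolysis genes 19 were detected in every rat: Gapdh read 14.39, 15.10 and 16.32, Eno1 had a mean of 14.52 ± 0.35 (n = 6), and Hk2 and Pklr were dark. Of 44 respiratory chain and ATP synthase genes 42 were detected in every rat, Cox6a1 being highest at 16.50 ± 0.31 and Cox6b1 dark. Of 39 genes of fasting and lipid metabolism 28 were detected in every rat, led by Acly (13.87 ± 0.27), Acadl (13.35 ± 0.22) and Slc27a2 (13.03 ± 2.56). Cpt1a, which admits fatty acids to mitochondria, read 8.80, 9.27 and 10.27, and the uncoupling protein Ucp2 11.05, 11.12 and 11.88. Dark in all rats were 7 (17.9%, against 25.4% of all symbols), among them Ppara, Ppargc1a, Pdk4, Ucp3, Acacb and Lpl. The first 3 of these regulate the fasting response of liver and muscle. Pdk4 read 1.77, 2.24 and 3.10 and was dark on the other 12 arrays too.

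Among 29 hormones, hormone receptors and nutrient genes, 14 were detected in every rat (48.3%, against 57.6% of all symbols). Another 10 were dark (34.5%, against 25.4%). Next to Npy stood the adiponectin receptor Adipor2 (11.59 ± 0.40, n = 6) and Slc2a4, and Nr3c1, the glucocorticoid receptor, read 10.57, 11.25 and 11.84. Agrp, the appetite peptide that shares hypothalamic neurons with Npy, read 10.04 in rat 5, 10.44 at the median and 12.33 in rat 2. Dark in all 6 rats were Insr (insulin receptor), Irs1, Lepr (leptin receptor), Vdr, Npy1r (a receptor for neuropeptide Y), Ghr, Thrb, Esr1, Glp1r and Lep. Insr read 1.66, 2.92 and 4.05 and was marked on 1 of the 12 other arrays, and Lepr read 2.19, 2.47 and 3.30 and was marked on none. Most gene names, 31311 of 35672, rest on 1 probe, and how well each binds was not tested. Dividing-cell genes were present at modest signal, 24 of 27 in every rat with a list median of 7.41 and Ccnd2 (11.67 ± 1.00) and Pcna (11.52 ± 0.33) among the highest. Clock genes were detected in every rat in 13 of 15 cases, led by Dbp (10.61 ± 0.58), Cry1 (10.33 ± 0.69) and Nfil3 (10.18 ± 0.21). Of 34 genes of iron storage, antioxidant defence and lysosomes 32 were detected in every rat, led by the ferritin chains Ftl1 (17.10 ± 0.46) and Fth1 (16.76 ± 0.68) and by Cst3 (15.90 ± 0.67), and Gclm was dark.

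The dark set was largely the same beyond LFD. Of the 11270 dark gene names 9312 were marked on none of the other 12 arrays, and 1958 on 1 or more. Only 2 names dark in LFD, AI009405 and XM_345750, were marked on most of the other arrays (8 and 7 of 12), and neither matches a current gene. No matched gene was dark in LFD and marked on 7 or more of the other 12.

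Promoters differed between detected and dark genes in their content of CG pairs. In vertebrates CG pairs are depleted from most of the genome and kept at many promoters, above all those of genes used in most cells. To show the range, 4 promoters are printed, the 250 bases before the RefSeq start on GRCr8, 5′ to 3′ in the gene's orientation, with CG pairs in capitals. Tmsb4x (bright, chrX:30761361-30761610, plus strand, 20 CG pairs) and Treml1 (bright, chr9:20139934-20140183, minus strand, 2 pairs) were detected in every rat, and Insr (chr12:6128804-6129053, minus strand, 24 pairs) and Fga (fibrinogen alpha chain, chr2:170671919-170672168, plus strand, 3 pairs) in none. They were picked after their values were seen, to hold each combination.
Tmsb4x: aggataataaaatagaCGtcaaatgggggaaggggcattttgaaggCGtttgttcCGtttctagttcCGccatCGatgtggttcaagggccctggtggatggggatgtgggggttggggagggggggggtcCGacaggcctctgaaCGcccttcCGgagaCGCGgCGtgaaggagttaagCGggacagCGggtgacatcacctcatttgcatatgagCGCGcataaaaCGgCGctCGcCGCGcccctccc
Treml1: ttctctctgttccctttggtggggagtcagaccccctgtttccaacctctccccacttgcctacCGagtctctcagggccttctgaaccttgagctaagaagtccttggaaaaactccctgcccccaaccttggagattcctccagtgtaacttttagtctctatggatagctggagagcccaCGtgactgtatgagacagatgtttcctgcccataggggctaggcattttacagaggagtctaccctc
Insr: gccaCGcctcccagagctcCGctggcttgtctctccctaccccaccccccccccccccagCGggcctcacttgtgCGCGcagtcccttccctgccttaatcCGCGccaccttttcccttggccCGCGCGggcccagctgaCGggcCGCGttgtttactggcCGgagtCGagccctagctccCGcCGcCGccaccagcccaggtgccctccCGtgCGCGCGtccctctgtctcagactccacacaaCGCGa
Fga: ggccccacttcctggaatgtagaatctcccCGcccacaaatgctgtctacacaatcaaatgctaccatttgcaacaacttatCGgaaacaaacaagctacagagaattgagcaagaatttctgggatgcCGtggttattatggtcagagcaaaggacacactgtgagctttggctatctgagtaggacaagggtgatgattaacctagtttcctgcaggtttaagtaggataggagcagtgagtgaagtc

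A RefSeq promoter was at hand for 12949 of the 16128 measured symbols. The median number of CG pairs in the 250 bases was 16 in 7560 symbols detected in every rat (quartiles 9 and 23), 9 in 2170 detected in some and 4 in 3219 dark ones (quartiles 1 and 12). It was 13 over all 12949 measured symbols with a promoter, and 6 over all 27457 promoters of the table. The distributions overlap, as Insr and Treml1 show. Among genes detected in every rat the median did not climb with signal beyond the dimmest class: it was 12 up to a signal of 6, 16 from 6 to 9, and 17 in each class above. Several cell type lists ran low whether bright or dim, with medians of 6 CG pairs in 14 T cell genes, 5 in 6 B cell genes, 3 in 16 NK genes, 4 in 17 monocyte genes and 3 in 16 platelet genes, and likewise 2 in 21 neutrophil and 4 in 14 hepatocyte genes. The plasma cell list had 15 (5 genes) and the CD4 list 8 (7 genes). Of 4 short letter strings, 2 themselves add a CG pair, CCGGAAG and GGGCGG. Over the genes detected in every rat, in some and in none, these 2 followed the order of the CG pairs, and the others did not. CCGGAAG, on either strand, is the core bound by many ETS factors. It was in 16.3% of promoters of genes detected in every rat, 6.36% of those detected in some and 3.01% of dark ones. Over all measured symbols it was in 11.4%, and over all promoters in 7.74%. GGGCGG, on either strand, the core of Sp1 sites, was in 58.0%, 41.7%, 29.0%, 48.1% and 32.4%, in the same order. CCAAT, on either strand, was in 36.5%, 33.2%, 33.6%, 35.2% and 34.3%. TATAAA on the gene's strand, 40 to 15 bases before the start, was in 1.26%, 2.86%, 2.98%, 1.95% and 1.50%, but in 6.19% of the 210 genes with a signal above 15. None of the 4 printed promoters holds TATAAA in that window. Matches were counted as letters only, and RefSeq starts may differ from the starts used in blood.

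As measured, the spread between rats was a little larger than that of the pool, and both hold the differences in brightness between arrays. The 75th percentile of the pool's Cy3 signal ran from 313 to 586 units over the 6 arrays, much as that of Cy5 did. Over the 9299 matched names detected in every rat the median SD of the rats' Cy5 signal was 0.45, against 0.35 for the Cy3 pool, which is 1 RNA on every array, and the rats' SD was the larger in 62.4% of names. Scaled to the 75th percentile of each array the rats' median SD was 0.36, and that of the log2 ratio of rat to pool 0.33. The pool's SD after scaling was not computed, so the part of array brightness in its 0.35 is not known. An SD above 1 was found for 250 names in the rats' Cy5 signal, for 55 in the pool and for 214 in the ratio, 115 of which had both the Cy5 SD and the ratio SD above 1. The spread fell with brightness, from a ratio SD of 0.44 at signals up to 6 to 0.20 above 15.

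The most uneven transcripts were set by 1 or a few rats. Adamts13, the protease that trims von Willebrand factor, read 12.19 in rat 1 and 4.81 to 5.40 in the other 5, while the pool read 8.97 ± 0.24 (n = 6), so its SD of 2.92 rests on 1 rat. Slc27a2, a fatty acid transporter and activating enzyme, read 8.08 in rat 5 and 13.07 to 15.46 in the others. Ldhb, a subunit of lactate dehydrogenase, stood at 2 levels, 13.91 in rat 1 and 14.00 in rat 6 against 10.28 to 11.18 in the other 4. Cxcl2, a chemokine that draws neutrophils, was 7.63 in rat 2 and 7.86 in rat 4 against 11.07 to 11.76 in the other 4. Its relative Cxcl1, looked up after that pattern was seen, was lowest in the same rats, at 2.05 and 2.63 against 7.22 to 8.59, and was marked on 4 arrays. Hbe1, an embryonic-type globin, read 5.77 in rat 4, 9.19 at the median and 10.33 in rat 6, an order unlike that of Hba-a3. Tmem132e read 3.30 in rat 3, where its brightest probe was not well above background, and 7.15 to 7.96 in the others. Bglap, Ddah1, Car5b, Map1b and Asb11 completed the 12 largest, with SDs of 1.64 to 1.78. At the other end Srcin1, Cpsf4, Frmd4a, Casp9, Akip1 and Lcmt1 had SDs of 0.05 to 0.07, below those of the pool through the same spots (0.19 to 0.57) and SDs of 0.30 to 0.34 after scaling. They were picked as the smallest of 9299.

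**Figure D4:**
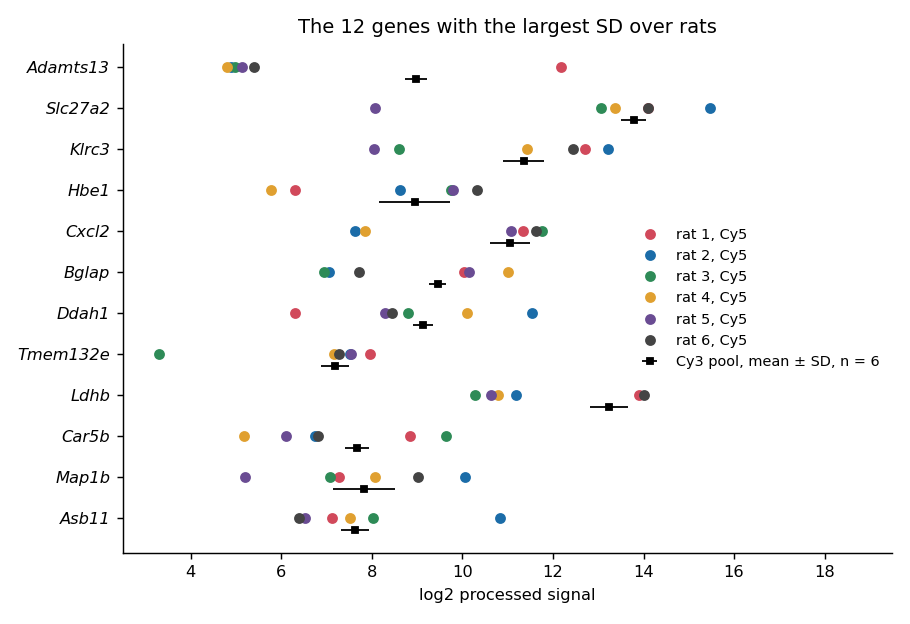
log2 processed signal (horizontal axis) of the 12 genes with the largest SD over LFD rats, with a coloured point per rat in Cy5 and a black square with a line for the Cy3 pool's mean ± SD on the same 6 arrays. Adamts13 has rat 1 alone at 12.19, Ldhb has rats 1 and 6 at 13.91 and 14.00, and the pool has SDs of 0.18 to 0.78.

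Several NK receptor genes were low in the same rats. Killer cell lectin-like receptors (Klr genes) include receptors that switch NK cells on or off by reading MHC class I on other cells. Of 14 measured 13 were detected in every rat, and Klra2 was dark. Klrc3 read 12.70, 13.21, 11.42 and 12.44 in rats 1, 2, 4 and 6, but 8.59 in rat 3 and 8.06 in rat 5. Klre1 read 14.24, 14.29, 13.47 and 14.08 in the former and 11.27 and 10.69 in the latter. The pool read 11.36 ± 0.45 and 13.33 ± 0.39 for the pair. These rats were noticed from Klrc3 and Klre1. After scaling, rats 3 and 5 were the lowest pair for 7 of the 13 Klr genes, those 2 included, and for 9 of 19 genes of the NK and cytotoxic list, where over all symbols they were so for 5.13%. Klrb1a, Klrb1b, Klrb1c, Klrd1, Klrg1 and Klrk1 enter both counts. Since the pair was picked from these genes, the counts describe them and test nothing. As measured, rats 3 and 5 were the lowest pair for 8 of the 13 Klr genes. In the other 5, Klra5, Klrb1c, Klrg1, Klrk1 and Klrh1, other rats were among the lowest 2, and after scaling this held for Klra22 too. As measured, rat 3 was highest for Klrh1 at 7.29 and second highest for Klra5 at 12.49 and Klrk1 at 10.04.

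Many platelet genes, and many red cell genes, were high or low in the same rats. On arrays scaled to their 75th percentile, rat 2 was highest for 14 of 19 platelet genes and rat 1 lowest for 13. Over 9257 symbols with 6 values rat 2 was highest for 16.9% and rat 1 lowest for 12.8%. Rat 2 was not high for platelet genes alone. It was also highest for 14 of 25 interferon-response genes, 13 of 27 actin and cytoskeleton genes and 10 of 20 chemokine receptor and homing genes. By contrast, it was lowest for 55 of 73 ribosomal protein genes. The median platelet gene lay 0.95 above its mean in rat 2 and 0.91 below it in rat 1, and both arrays lay on 1 slide. Erythroid genes were highest in rat 3 for 15 of 27 and lowest in rat 5 for 17 of 27, where all symbols gave 6.25% and 13.5%. The rats named were picked by these counts. The median deviation of erythroid genes was 0.73 in rat 3 and -0.71 in rat 5. Slc4a1, the anion exchanger of red cells, read 9.92 in rat 3 and 6.23 in rat 5, and Hbb 14.87 and 11.51. Monocyte genes were lowest in rat 1 for 12 of 22. As ratios to the pool, the median deviation of platelet genes was 0.96 in rat 2 and -0.85 in rat 1, that of erythroid genes 0.81 in rat 3 and -0.82 in rat 5, and that of monocyte genes -0.49 in rat 1. T cell genes had median deviations of only -0.03 to 0.15 after scaling, but single members varied as other genes do, with a median scaled SD of 0.35 against 0.36 over all symbols, and the mean of their ratios to the pool ran from -0.55 in rat 6 to 0.19 in rat 1. The members of a list share the RNA of 6 samples, so these counts describe 6 animals.

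**Figure D5:**
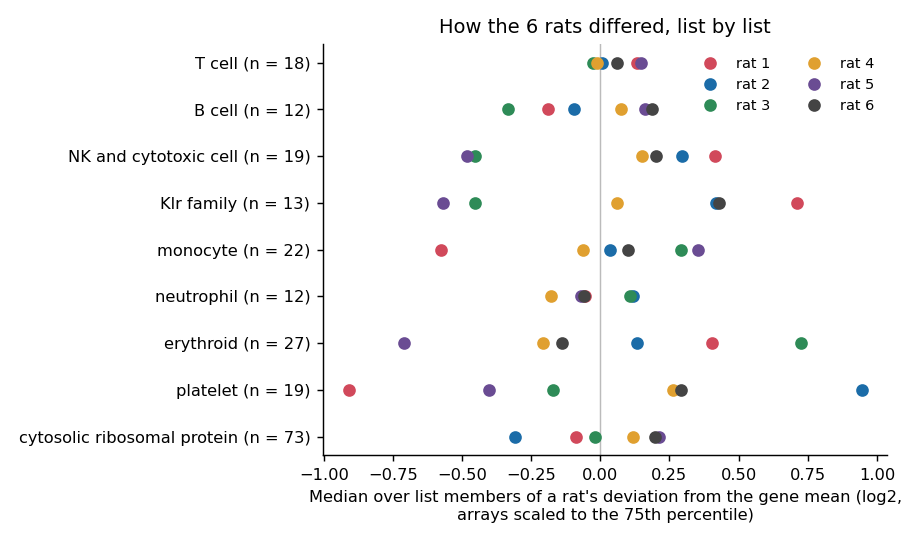
Median over the members of a list of each rat's deviation from the gene's mean (horizontal axis, log2, arrays scaled to the 75th percentile), with 1 coloured point per rat and only members detected in every rat (n in brackets). The T cell points lie close together, whereas platelet genes run from -0.91 in rat 1 to 0.95 in rat 2 and erythroid genes from -0.71 in rat 5 to 0.73 in rat 3.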

How the data were processed

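RNA of PBMC was hybridised to 2-colour Agilent 4x44K rat arrays, 1 rat per array, Cy5 for the rat and Cy3 for an equimolar pool, per the labels' protocols. Scanner output was deposited for each array, and the submitters' processing notes name Agilent Feature Extraction 10.5.1.1. In it the deposited intensity of a spot has had background and spatial trend removed and the dyes normalized within the array, per the file headers. The low spots hold surrogate values (18.4 to 29.5% of LFD spots), so signals there have no order. A table of log2 values that the authors deposited was not used here.

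Control spots and spots marked as outliers (101 to 145 per LFD array) were left out, spots of a probe averaged on the log2 scale, the brightest probe by mean taken per gene name, and mean and SD computed over 6 rats with no scaling between arrays (Python 3.11.15, pandas 2.3.3; R 4.3.3 and limma 3.58.1 for the normexp alternative). A probe was above background where over 50% of its spots were, and a gene name where any probe was. Of 41012 probes 20667 were named through RefSeq's gene table (GRCr8), by accession, symbol, synonym or gene ID, and the rest keep the file's name. Of the 885 listed genes 87 had no match, Ptprc and Hba-a2 among the unmatched. Promoters are those of RefSeq on GRCr8. The chromosome the array design gives for each symbol's probe was compared with RefSeq's. The functions were tested on simulated data with known levels.

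The genes named are the 30 brightest matched names, per list the 3 highest and up to 5 dark members, the 12 largest and 6 smallest SDs, 34 further genes on a set list (32 measured) and the names dark in LFD but seen on most other arrays. Others are named in passing with their values seen. Members, lists and genes were chosen with earlier results of these data known. Each sample is its own rat by the labels, and their number limits the precision. There is 1 group and no contrast, so no test between groups was run, and Dixon's limit was used only to pick out single rats. Alternatives were scaling, quantile normalization, normexp, outlier spots, the median of probes, other detection flags, current symbols as names, and leaving out rats or slide 1. Some genes that this rule names are not reported here.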

Additional observations from a re-analysis of the deposited data

Results flagged for a closer look

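Of 109 values examined (the genes named by rank, by spread or on a set list, and list means), 9 had 1 rat whose gap to the nearest other exceeded 0.625 of the range over 6 rats, Dixon's limit for 6 samples. Chance gives this in about 1 of 20 values not chosen for their spread, but Adamts13, Slc27a2, Tmem132e and Asb11 were named for their large SD over the same rats, so that rate does not hold for them. Rat 2, the brightest array, stood high for Npy at 19.60 (others 18.50 to 18.85), for Tpt1 at 19.29 (18.58 to 18.84), for Asb11 at 10.84 (6.38 to 8.02), for Adipoq at 5.81 (2.31 to 3.53) and for Lepr at 3.30 (2.19 to 2.59). Lepr was below detection in all 6, so its order has no meaning. Rat 5, the dimmest array, stood low for Rpl35 at 17.06 (17.96 to 18.43) and for Slc27a2 at 8.08 (13.07 to 15.46). Rat 1 stood high for Adamts13 at 12.19 (4.81 to 5.40), and rat 3 low for Tmem132e at 3.30 (7.15 to 7.96). The part of array brightness in these values was not tested.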

How the results depend on the processing

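Counts of gene names depended on the detection flag. With the software's milder flag, positive and significant signal, 22015 names were marked on all 6 arrays and 3401 on none, in place of 17198 and 11270, and 18 of the 20 cell type lists, in place of 11, had over 50% of members detected in every rat. The Cy3 pool's flag gave 15336 and 15313. Leaving out 1 rat at a time gave 17220 to 17772 names detected in all remaining rats and 11435 to 12255 in none, kept 97 to 98 of the 100 brightest names, and gave a median SD of 0.38 to 0.48, lowest without rat 2. In each of these 6 settings 11 of 20 cell type lists and 15 of 17 function lists had over 50% of members detected. Scaling and quantile normalization kept all 100 brightest names, normexp kept 95 and the median of probes 86. Normexp on all spots gave a median SD of 0.63, and 0.33 when fitted without marked spots, an alternative added after seeing the data. Normexp was run with 50 units added to every signal, so dim levels rise in log2 whatever the data. Of 76 gene levels, normexp moved 36 and the median of probes 15 by more than 1 SD over rats. Of 37 list medians they moved 20 and 10. Leaving out a rat cannot move a mean that far. No paired analysis was possible because 1 group is described and no groups were tested. At low signal the surrogate values limit what can be ordered.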
